A study of Mus musculus with 4 samples.

Results

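The 46 genes described here encode the machinery of DNA replication and S phase: the proteins that license and unwind origins, the sliding clamp with its loader and the polymerases, enzymes of nucleotide supply, E2F and cyclin regulators, repair proteins and factors that rebuild chromatin behind the fork. They were chosen by name, and all 46 are among the 16383 genes of the count table. RNA-seq was carried out on primary cultures of cardiac fibroblasts, which make the matrix of the heart, from wild-type mice aged 3 months. Both groups had received the cardiac reprogramming factors MGT (Mef2c, Gata4 and Tbx5) and were collected at day 7. The groups differed in a short hairpin RNA, which was a control labelled shNT in 2 libraries and one against the nuclear receptor gene Nr4a3 (shNr4a3) in the other 2. The comparison asks what accompanies the enhanced conversion to induced cardiomyocytes that the submitters attribute to the knockdown. No group without MGT is among the samples, and the labels do not give the number of hairpins, cultures or animals behind a library, so p-values measure the spread between these libraries, which may be technical.

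Before S phase, the origin recognition complex, Cdc6 and the MCM helicase are loaded on DNA, and Cdc45 and the GINS complex later turn the helicase on. PCNA, a ring loaded by replication factor C, then holds the polymerases on the template, while RPA coats single-stranded DNA. Many of these genes are transcribed at the G1/S transition by E2F factors, and cardiac fibroblasts, mostly quiescent in the adult heart, are known to proliferate after injury and in culture.

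The libraries held 28220440 to 30976450 counts over the listed genes, so 1 count was worth 0.0323 to 0.0354 CPM, the unit of counts scaled to library size used here. The table lists genes of 16 chromosomes, 1 to 6 and 10 to 19, with 554 genes of chromosome 6 against 1262 of chromosome 5. Replication genes elsewhere, such as Mcm5, Cdt1, Pold1, Lig1, Rrm1 and E2f8, were not analysed here. CPM and shares over all genes tested rest on the listed genes alone. Nr4a3 had 356 and 353 counts under shNT and 18 and 32 under shNr4a3. Markers of the labelled cell type were present. Of 9 fibroblast markers, 5 were lower under shNr4a3, 2 were higher and 2 did not pass, with Col1a1 at 1948 and 2075 CPM under shNT and 1125 and 1043 under shNr4a3, and Col5a1 at 1451 and 1625 against 3155 and 3143. Pdgfra, a fibroblast receptor gene, was at 355 and 321 against 66.7 and 74.9 CPM. Of 11 macrophage markers, 6 were lower under shNr4a3, with log2 fold changes from -0.96 to -1.82, and 5 did not pass. Their summed level was 181 to 232 CPM in shNT and 158 to 163 in shNr4a3. Most of this sum was Lyz2, which did not pass (log2 fold change -0.17). Of 5 mural cell markers, 4 were higher and 1, Pdgfrb, was lower (log2 fold change -0.67). Their summed level was 393 to 450 CPM in shNT and 1370 to 1417 in shNr4a3. The largest part of this sum was Des, at 242 and 180 CPM under shNT and 1183 and 1114 under shNr4a3. Of 8 cardiomyocyte markers, 5 were higher (Actc1, Ttn, Actn2, Myh6 and Ryr2) and 1, Tnnt2, was lower, at 15314 and 13105 CPM under shNT and 8238 and 7121 under shNr4a3, so their summed level was 13359 to 15586 against 7661 to 8634. Of 7 endothelial markers, 2 were higher (Emcn and Kdr), 2 were lower (Tek and Egfl7) and 3 did not pass. No marker of the 5 lists of cell types was at 0 counts in any library, and the part of other cells in the results was not tested.

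The sequence before the start of these genes was searched for short motifs. Their choice by name did not use motifs, but it took in genes known to be transcribed by E2F factors. A high share of E2F-type letters is therefore not independent of that choice. Of the 46 genes, 38 have a promoter window in the RefSeq table for GRCm38.p6 (equal to mm10), which runs from 250 bases before to 50 bases after the start. An E2F-type motif, written as TTTCCCGC, TTTCGCGC, TTTGCCGC or TTTGGCGC and searched on both strands with overlaps allowed, was present in 14 of the 38 windows (36.8%), against 2.32% of the 27025 windows of all genes. The pentamer CCAAT was present in 25 of 38 (65.8%), against 37.9% of all windows. The letters AAAGGTCA, the element that Nr4a receptors bind as monomers (NBRE), were in 0 of 38 windows and in 1.46% of all windows. A match is a run of letters and not a bound site, and no match says only that these letters are not in the window. The 200 bases before the start are shown for genes described in the results: helicase subunits and Cdc6, which licenses origins, together with the chromatin gene Hells, as genes that were lower under shNr4a3, E2f3 as a gene that was higher, Orc1 as one that did not pass the test, and Slbp as a gene that was lower and has no E2F-type letters in its window. Each is read 5′ to 3′ along the gene, with E2F-type letters on either strand in capitals. The start is the one in the RefSeq table, which can differ from the gene bound in the GENCODE M21 annotation used for the other coordinates. The stretches of Cdc6 and Mcm7 lie inside the M21 bounds of these genes (98907801 to 98923940 and 138164583 to 138172422).
Mcm6 (chr1:128359706-128359905, minus strand): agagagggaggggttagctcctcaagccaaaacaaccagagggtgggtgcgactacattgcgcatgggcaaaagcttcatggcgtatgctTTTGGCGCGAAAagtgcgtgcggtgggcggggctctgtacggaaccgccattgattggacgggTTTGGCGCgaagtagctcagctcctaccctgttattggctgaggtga
Mcm7 (chr5:138171884-138172083, minus strand): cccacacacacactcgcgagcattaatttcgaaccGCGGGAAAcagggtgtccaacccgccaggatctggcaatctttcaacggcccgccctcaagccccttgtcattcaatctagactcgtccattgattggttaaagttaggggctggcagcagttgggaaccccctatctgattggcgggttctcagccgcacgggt
Cdc6 (chr11:98907951-98908150, plus strand): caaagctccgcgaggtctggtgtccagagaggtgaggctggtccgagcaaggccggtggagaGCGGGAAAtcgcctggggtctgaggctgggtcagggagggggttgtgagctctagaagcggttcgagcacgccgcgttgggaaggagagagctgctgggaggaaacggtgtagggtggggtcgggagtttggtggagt
Hells (chr19:38930790-38930989, plus strand): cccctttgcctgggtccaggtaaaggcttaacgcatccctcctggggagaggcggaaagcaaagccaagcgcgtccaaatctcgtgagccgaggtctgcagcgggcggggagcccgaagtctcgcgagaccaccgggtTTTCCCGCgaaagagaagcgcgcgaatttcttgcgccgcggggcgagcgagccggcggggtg
E2f3 (chr13:29986064-29986263, minus strand): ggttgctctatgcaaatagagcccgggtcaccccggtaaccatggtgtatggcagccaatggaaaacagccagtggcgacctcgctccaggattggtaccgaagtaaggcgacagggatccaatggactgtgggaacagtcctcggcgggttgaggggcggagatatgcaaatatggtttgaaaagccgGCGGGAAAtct
Orc1 (chr4:108579254-108579453, plus strand): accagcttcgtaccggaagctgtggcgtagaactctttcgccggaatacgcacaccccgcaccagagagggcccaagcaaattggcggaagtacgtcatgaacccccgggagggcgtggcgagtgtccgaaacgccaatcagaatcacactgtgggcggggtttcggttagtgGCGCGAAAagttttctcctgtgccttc
Slbp (chr5:33652575-33652774, minus strand): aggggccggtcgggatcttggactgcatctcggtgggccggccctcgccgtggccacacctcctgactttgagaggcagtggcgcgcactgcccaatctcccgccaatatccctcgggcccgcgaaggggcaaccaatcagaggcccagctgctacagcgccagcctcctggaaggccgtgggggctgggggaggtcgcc
In Mcm6 the capitals mark 3 motifs, of which a pair overlap, TTTGGCGC on the strand of the gene and GCGCGAAA, the reverse complement of TTTCGCGC, on the other. Mcm7 holds a second motif after its start that is not shown. E2F-type letters were in the windows of 9 of 22 genes that were lower, 2 of 3 that were higher and 3 of 13 that did not pass.

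Most of the genes were lower under shNr4a3. Each gene was tested with edgeR's quasi-likelihood test, with Benjamini-Hochberg adjustment over the 10736 genes that had enough counts, and all 46 were among them. At an adjusted p under 0.05, 28 were lower, 3 were higher and 15 did not pass, where 29.4% of all genes tested were lower, 30.7% were higher and 60.2% passed in either direction. The median log2 fold change of the 46 was -0.52, ranging from -1.35 for Pole2 to 4.29 for E2f2, beside a median of 0.02 over all genes tested. Both shNr4a3 libraries were below both shNT libraries for 31 of the 46, where this held for 39.9% of all genes tested, and above them for 7, where it held for 41.1%. Summed over the 46 genes, the level was 1348 and 1355 CPM under shNT and 1002 and 944 CPM under shNr4a3. In bulk RNA, fewer cells in S phase and less RNA per cell cannot be told apart.

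**Figure D1:**
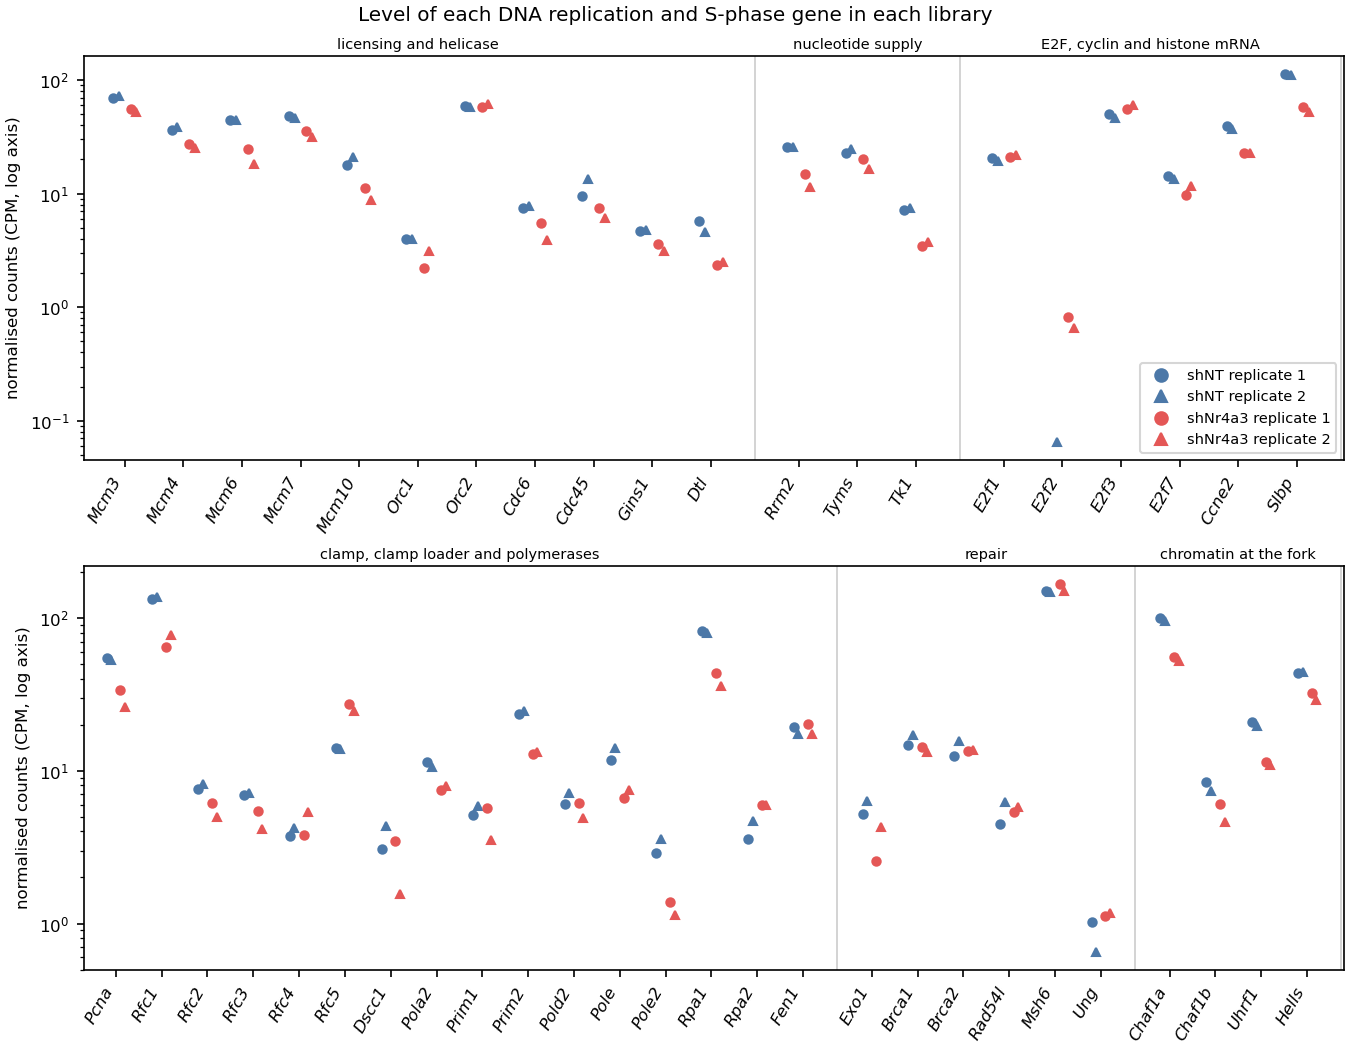
Normalised counts (CPM, log axis) of each of the 46 genes, grouped by role, with circles and triangles for replicates 1 and 2 of shNT (blue) and shNr4a3 (red). The red points lie below the blue points for 31 genes and above them for 7, and the shNT replicate 1 value of E2f2, which is 0, is not drawn.

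Most licensing and helicase genes were lower. Of 11 genes, 8 were lower (72.7%, beside 29.4% of all genes tested) and 3 did not pass. Their median log2 fold change was -0.58. The MCM proteins 2 to 7 form the ring-shaped replicative helicase, and the 4 of its genes in the table (Mcm3, Mcm4, Mcm6 and Mcm7) were all lower. Mcm6 (chromosome 1, 128331590 to 128359664, mm10) had 44.4 and 44.2 CPM under shNT and 24.8 and 18.3 CPM under shNr4a3. The groups were well apart, and the log2 fold change was -1.04 (SE 0.141, edgeR adjusted p = 1.91e-04). Mcm3, the highest of them per kilobase of exon, had 69.6 and 71.7 CPM against 55.3 and 52.7. Its log2 fold change of -0.39 (with an SE of 0.0860, edgeR adjusted p = 0.00366) was the smallest of the helicase genes. Mcm4 and Mcm7 changed alike, with log2 fold changes of -0.51 (SE 0.103) and -0.50 (SE 0.101). Mcm7 had 47.7 and 46.3 CPM under shNT and 35.3 and 31.3 under shNr4a3, and shares 7.25% and 1.45% of its exon bases with Ap4m1 and Cops6 on the opposite strand (log2 fold changes -0.31 and -0.21).

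Regulators of licensing and firing were lower too. Dtl encodes the adaptor of the ubiquitin ligase that destroys the licensing factor Cdt1 in S phase. It had 5.74 and 4.58 CPM under shNT and 2.35 and 2.51 under shNr4a3 (log2 fold change -1.08 with an SE of 0.255, edgeR adjusted p = 0.00507). Mcm10, a firing factor despite its name, had 17.8 and 21.1 CPM against 11.2 and 8.86 (log2 fold change -0.96 with an SE of 0.158, edgeR adjusted p = 6.53e-04). Cdc45, which joins the active helicase, had 9.56 and 13.5 CPM under shNT and 7.45 and 6.09 under shNr4a3. The spread within shNT was wide, and the log2 fold change of -0.77 (edgeR adjusted p = 0.00978) was -0.50 without shNT replicate 2 (adjusted p = 0.0905). Cdc6, which loads the MCM ring together with the origin recognition complex, had 7.53 and 7.72 CPM against 5.53 and 3.94 (log2 fold change -0.69, edgeR adjusted p = 0.0209). Its call was lost without shNT replicate 2 (adjusted p = 0.0605) and without shNr4a3 replicate 2 (adjusted p = 0.0996).

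Among subunits of the origin recognition complex, Orc1 and Orc2 did not pass. Orc1, the subunit whose level cycles, had 3.99 and 3.96 CPM under shNT and 2.22 and 3.09 under shNr4a3, with a log2 fold change of -0.58 (with an SE of 0.276, edgeR adjusted p = 0.0984). Orc2, a core subunit, had 58.7 and 57.8 CPM against 58.1 and 61.9, and its groups overlapped (log2 fold change 0.04, SE 0.0874). Nif3l1, which shares 29.8% of the exon bases of Orc2 on the opposite strand, was also within error of 0 (log2 fold change 0.12). Of the other subunits in the table, Orc3 (log2 fold change -0.33, edgeR adjusted p = 0.0340) and Orc4 (-0.24, 0.0248) were lower, and Orc5 (0.52, 0.0865) did not pass. Orc4 shares exon bases with Acvr2a and Mbd5 on the opposite strand. Gins1, a subunit of the GINS complex, had 4.73 and 4.74 CPM under shNT and 3.58 and 3.13 under shNr4a3. The libraries did not overlap, but the log2 fold change of -0.50 (SE 0.234) did not pass, with 96 to 145 counts per library (edgeR adjusted p = 0.0938).

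The clamp, its loader and the polymerases went mostly down, with exceptions inside single complexes. Of 16 genes, 9 were lower, 1 was higher and 6 did not pass (median log2 fold change -0.53). Pcna (chromosome 2, 132249162 to 132253314) had 55.0 and 53.0 CPM under shNT and 33.9 and 26.1 under shNr4a3 (log2 fold change -0.85 with an SE of 0.128, edgeR adjusted p = 3.80e-04). The processed copy Pcna-ps2, which could exchange reads with it, held 4 to 12 counts per library, against 800 to 1619 for Pcna.

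Replication factor C is a ring of 5 different subunits that opens PCNA, and its genes did not move as a unit. Rfc1, the large subunit, fell from 134 and 137 CPM to 64.9 and 77.7 (log2 fold change -0.93 with an SE of 0.0989, edgeR adjusted p = 4.19e-05). Rfc2 had 7.60 and 8.21 CPM under shNT and 6.16 and 4.95 under shNr4a3 (log2 fold change -0.51, edgeR adjusted p = 0.0447). Rfc3 had 6.90 and 7.13 CPM against 5.43 and 4.17 (log2 fold change -0.55, edgeR adjusted p = 0.0455). Both small-subunit calls were lost without shNT replicate 1 (adjusted p = 0.0631 for Rfc2 and 0.0797 for Rfc3), without shNT replicate 2 (0.155 and 0.126), without shNr4a3 replicate 2 (0.182 and 0.197) and with DESeq2 (0.115 and 0.113). Rfc2 shares 15.1% of its exon bases with Lat2 on the opposite strand, which was lower as well (log2 fold change -0.90). Rfc4 had 3.75 and 4.19 CPM under shNT and 3.78 and 5.41 under shNr4a3, and its groups overlapped (log2 fold change 0.21, SE 0.256). Eif4a2, which shares 12.7% of the Rfc4 exon bases, was at 0.16.

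Rfc5 (chromosome 5, 117378103 to 117389047) was the exception in the complex. It rose from 14.1 and 13.8 CPM to 27.3 and 24.6 CPM (log2 fold change 0.89 with an SE of 0.116, edgeR adjusted p = 1.49e-04). In GENCODE M21, 499 of its 4669 exon bases (10.7%) are shared with Wsb2 on the opposite strand. Wsb2 had 69.5 and 71.0 CPM under shNT and 211 and 192 under shNr4a3 (log2 fold change 1.52). The strand setting of the counting is not given in the sources used here, so reads of the genes cannot be told apart over the shared bases, and the part of Wsb2 in the rise of Rfc5 was not tested. Dscc1, a subunit of the alternative clamp loader of sister chromatid cohesion, had 3.08 and 4.32 CPM under shNT and 3.48 and 1.56 under shNr4a3. Its groups overlapped (log2 fold change -0.56 with an SE of 0.387, edgeR adjusted p = 0.241), and it passed without shNr4a3 replicate 1 (-1.24 on the log2 scale, adjusted p = 0.0190).

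Polymerase epsilon, which copies the leading strand, was lower in Pole and Pole2. Pole, its catalytic subunit, had 11.7 and 14.1 CPM under shNT and 6.59 and 7.52 under shNr4a3 (log2 fold change -0.87 with an SE of 0.166, edgeR adjusted p = 0.00156). Pole2, its second subunit, had 2.91 and 3.57 CPM against 1.39 and 1.14. This was the largest fall of the 46 genes (log2 fold change -1.35 with an SE of 0.333, edgeR adjusted p = 0.00639), from 83 and 109 counts to 42 and 35. Pole3, an accessory subunit of the same enzyme outside the 46, was higher, with 199 and 179 CPM under shNT and 259 and 227 under shNr4a3 (log2 fold change 0.36, edgeR adjusted p = 0.00794). Pold2, a subunit of polymerase delta, had 6.09 and 7.17 CPM under shNT and 6.16 and 4.89 under shNr4a3, with overlapping groups (log2 fold change -0.26, edgeR adjusted p = 0.298).

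Primase, which starts each strand together with polymerase alpha, gave unequal values. Prim2, its large subunit, fell from 23.4 and 24.6 CPM to 12.9 and 13.3 (log2 fold change -0.87 with an SE of 0.115, edgeR adjusted p = 1.61e-04). Prim1, the catalytic subunit, had 5.11 and 5.89 CPM under shNT and 5.66 and 3.52 under shNr4a3, and its groups overlapped (log2 fold change -0.26, SE 0.263). Pola2, a subunit of polymerase alpha, had 11.3 and 10.5 CPM against 7.52 and 7.95 (log2 fold change -0.50, edgeR adjusted p = 0.0191). That call was lost without shNT replicate 1 (adjusted p = 0.0780), without shNr4a3 replicate 1 (0.0594) and with DESeq2 (0.0601).

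The RPA genes had log2 fold changes of opposite sign. Rpa1, the large DNA-binding subunit, fell from 82.3 and 80.2 CPM to 43.5 and 35.6 (log2 fold change -1.04 with an SE of 0.109, edgeR adjusted p = 3.76e-05). Rpa2, the subunit phosphorylated after DNA damage, had 3.57 and 4.71 CPM under shNT and 5.96 and 5.99 under shNr4a3. Both shNr4a3 values of Rpa2 were above both shNT values, but the log2 fold change of 0.53 (SE 0.223) did not pass (edgeR adjusted p = 0.0673). It passed without shNT replicate 2 (0.74 on the log2 scale, adjusted p = 0.0422). Fen1, the nuclease that trims Okazaki fragments, had 19.2 and 17.3 CPM against 20.1 and 17.5, with overlapping groups (log2 fold change 0.04, SE 0.127).

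Corrected for exon length, the subunits of a complex stood at unequal levels in every library. On the scale of CPM per kilobase, Rfc1 was at 22.2 and 22.8 under shNT, while Rfc2 to Rfc5 lay between 1.21 and 3.01. Under shNr4a3, Rfc1 was at 10.8 and 12.9 and Rfc5 at 5.85 and 5.27. Rpa1 was at 14.8 and 14.4 CPM per kilobase and Rpa2 at 1.19 and 1.57 under shNT, against 7.80 and 6.38 for Rpa1 and 1.99 and 2.00 for Rpa2 under shNr4a3. The length is the exon length given with the counts. Where it exceeds the length of the transcripts present, it lowers the value. For Chaf1a, Pola2 and Pole2 it is below the GENCODE M21 exon length (3308 against 8854, 2872 against 8294 and 1695 against 2881 bases). With the M21 length their values would be lower.

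**Figure D2:**
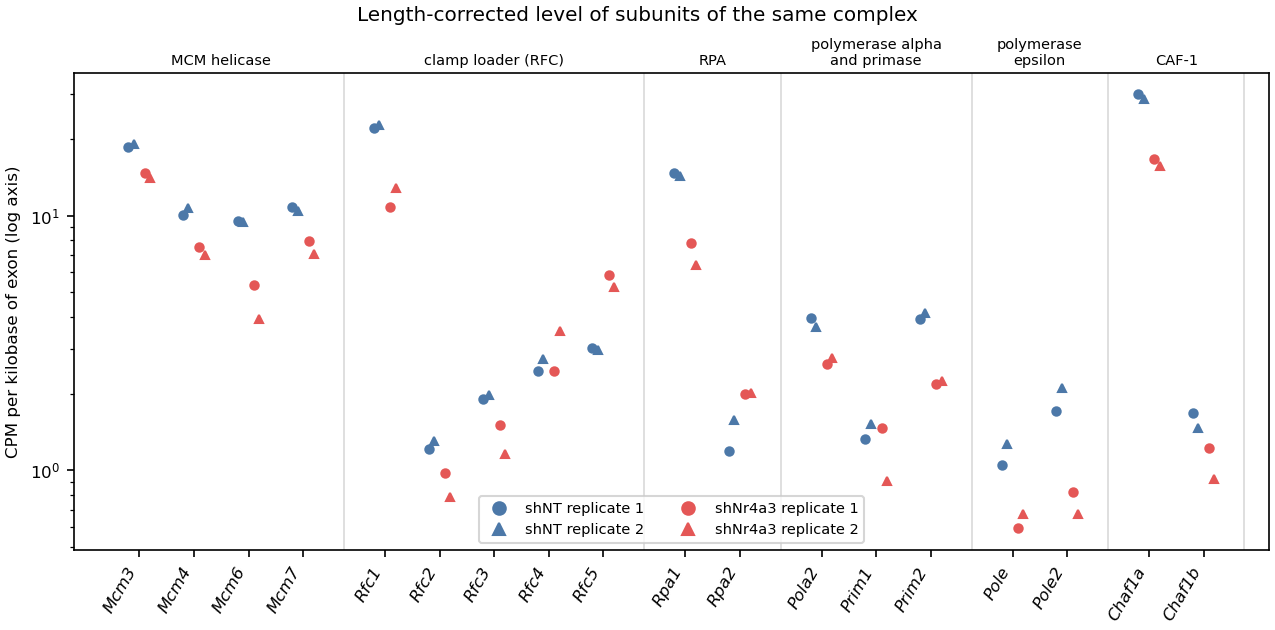
Length-corrected level (CPM per kilobase of exon, log axis) of genes for subunits of 6 complexes in each library, with shNT in blue and shNr4a3 in red. Within the clamp loader, Rfc1 fell from 22.2 and 22.8 to 10.8 and 12.9 while Rfc5 went from 3.01 and 2.96 to 5.85 and 5.27.

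All 3 genes of nucleotide supply were lower, where 29.4% of all genes tested were. Rrm2 (chromosome 12, 24708241 to 24714146) encodes the S-phase subunit of ribonucleotide reductase, which makes deoxyribonucleotides. It fell from 25.7 and 25.9 CPM to 14.8 and 11.4 (log2 fold change -0.98 with an SE of 0.142, edgeR adjusted p = 2.95e-04). Tk1, the cytosolic thymidine kinase, fell from 7.18 and 7.53 CPM to 3.44 and 3.71 (log2 fold change -1.04 with an SE of 0.200, edgeR adjusted p = 0.00167). Tk1 shares 83 exon bases (1.60%) with Afmid on the opposite strand, which was lower as well (log2 fold change -0.96). Tyms, thymidylate synthase, changed least, from 22.9 and 24.9 CPM to 20.0 and 16.4 (log2 fold change -0.39, edgeR adjusted p = 0.0257). The Tyms call was lost without shNT replicate 2 (adjusted p = 0.137) and without shNr4a3 replicate 2 (0.103).

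Of the 4 E2F genes, 2 were higher, 1 was lower and 1 did not pass, where 30.7% of all genes tested were higher and 29.4% lower. E2f1, E2f2 and E2f3 encode activators of S-phase genes. E2f1 had 20.5 and 19.4 CPM under shNT and 20.9 and 21.8 under shNr4a3 (log2 fold change 0.10 with an SE of 0.110, edgeR adjusted p = 0.478). E2f3 was higher, with 50.6 and 46 CPM against 55.9 and 60.1 (log2 fold change 0.26 with an SE of 0.0957, edgeR adjusted p = 0.0383). The E2f3 call was lost without shNT replicate 1 (adjusted p = 0.0942), without shNT replicate 2 (0.294), without shNr4a3 replicate 2 (0.107), with DESeq2 (0.0828) and with no low-count filter (0.0549). E2f2 had 0 and 2 counts under shNT and 25 and 20 counts under shNr4a3. Normalised for library size, this is a ratio of 21.8 (exact 95% interval 5.71 to 186, counting error only). E2f2 entered the test through its shNr4a3 counts, so with its shNT counts it had to differ, and its call (edgeR adjusted p = 0.00384) adds nothing to the counts. Its shNr4a3 level was 0.828 and 0.651 CPM.

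E2f7, a repressor among the E2F factors, had 14.4 and 13.3 CPM under shNT and 9.80 and 11.6 under shNr4a3 (log2 fold change -0.38, edgeR adjusted p = 0.0497). Its call was lost without shNT replicate 1 (adjusted p = 0.161), without shNT replicate 2 (0.0847), without shNr4a3 replicate 1 (0.212) and with DESeq2 (0.126). Ccne2, cyclin E2, which activates Cdk2 at the entry to S phase, fell from 39.5 and 37.1 CPM to 22.8 and 22.6 (log2 fold change -0.76 with an SE of 0.1, edgeR adjusted p = 1.70e-04). Ints8, which shares 17.4% of the Ccne2 exon bases on the opposite strand, did not pass (log2 fold change -0.07).

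Slbp (chromosome 5, 33634952 to 33652574), the stem-loop binding protein of replication-dependent histone mRNA, had the smallest adjusted p of the 46 genes. It fell from 112 and 110.5 CPM to 57.7 and 52.3 (log2 fold change -1.02 with an SE of 0.0870, edgeR adjusted p = 9.69e-06). Slbp binds the mRNA of histone genes. Of 48 genes of the Hist1 to Hist4 clusters tested, 20 (41.7%) were higher, beside 30.7% of all genes tested, and 28 did not pass. Both shNr4a3 libraries were below both shNT libraries for 8 of the 48 (16.7%, beside 39.9% of all genes tested). They were above both for 30 of the 48, where this held for 41.1% of all genes tested. Their summed level was 750.1 and 732 CPM under shNT and 1193 and 1062 under shNr4a3. These are near-identical copies that can exchange reads, and the labels name both polyA RNA and a ribosomal depletion kit, on which the recovery of histone mRNA without a poly(A) tail depends. The part of either in these values was not tested.

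Most repair genes did not pass. Of 6, 1 was lower (16.7%, beside 29.4% of all genes tested) and 5 did not pass. Their median log2 fold change was -0.01. Exo1, an exonuclease of mismatch repair and end resection, had 5.18 and 6.38 CPM under shNT and 2.58 and 4.30 under shNr4a3 (log2 fold change -0.75, edgeR adjusted p = 0.0441). The call was lost without shNT replicate 2 (adjusted p = 0.176), without shNr4a3 replicate 1 (0.212) and with DESeq2 (0.0684). Msh6, a subunit of the mismatch sensor, had 149.7 and 148 CPM against 166 and 151 (log2 fold change 0.09, SE 0.0813). Brca1, the ubiquitin ligase subunit of homologous recombination, had 14.8 and 17.0 CPM under shNT and 14.2 and 13.3 under shNr4a3 (log2 fold change -0.21, SE 0.133). Brca2, a mediator of homologous recombination, had 12.5 and 15.7 CPM against 13.4 and 13.6, so its shNr4a3 values lay inside the shNT range (log2 fold change -0.07, SE 0.147).

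Rad54l, a motor protein of recombination, had 4.48 and 6.25 CPM under shNT and 5.37 and 5.76 under shNr4a3 (log2 fold change 0.05, SE 0.226). Ung, the uracil-DNA glycosylase, had 1.02 and 0.654 CPM against 1.13 and 1.17, from 20 to 36 counts per library (log2 fold change 0.46, SE 0.476). At these errors, changes of the size seen for Mcm3 would not be detectable for Ung.

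All 4 genes for chromatin at the fork were lower, where 29.4% of all genes tested were. Chaf1a and Chaf1b encode subunits of CAF-1, which places histones on new DNA. Chaf1a fell from 99.2 and 94.8 CPM to 55.3 and 51.9 (log2 fold change -0.86 with an SE of 0.0856, edgeR adjusted p = 2.71e-05). In GENCODE M21, 52.5% of the Chaf1a exon bases are shared with Ubxn6 on the opposite strand, which had a log2 fold change of -0.19 and did not pass. The count table gives Chaf1a 3308 exon bases against 8854 in M21, so how much of the overlap was counted is not known. Chaf1b had 8.41 and 7.33 CPM under shNT and 6.09 and 4.62 under shNr4a3 (log2 fold change -0.55, edgeR adjusted p = 0.0421). The Chaf1b call was lost without shNT replicate 1 (adjusted p = 0.15), without shNT replicate 2 (0.0503), without shNr4a3 replicate 2 (0.181) and with DESeq2 (0.0948). Uhrf1, which guides the maintenance DNA methyltransferase to hemimethylated sites, fell from 20.9 and 19.7 CPM to 11.4 and 10.8 (log2 fold change -0.86 with an SE of 0.124, edgeR adjusted p = 2.68e-04). Hells, a chromatin remodeller needed for DNA methylation, fell from 43.4 and 44.3 CPM to 32.4 and 28.9 (log2 fold change -0.52 with an SE of 0.102, edgeR adjusted p = 0.00187).

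**Figure D3:**
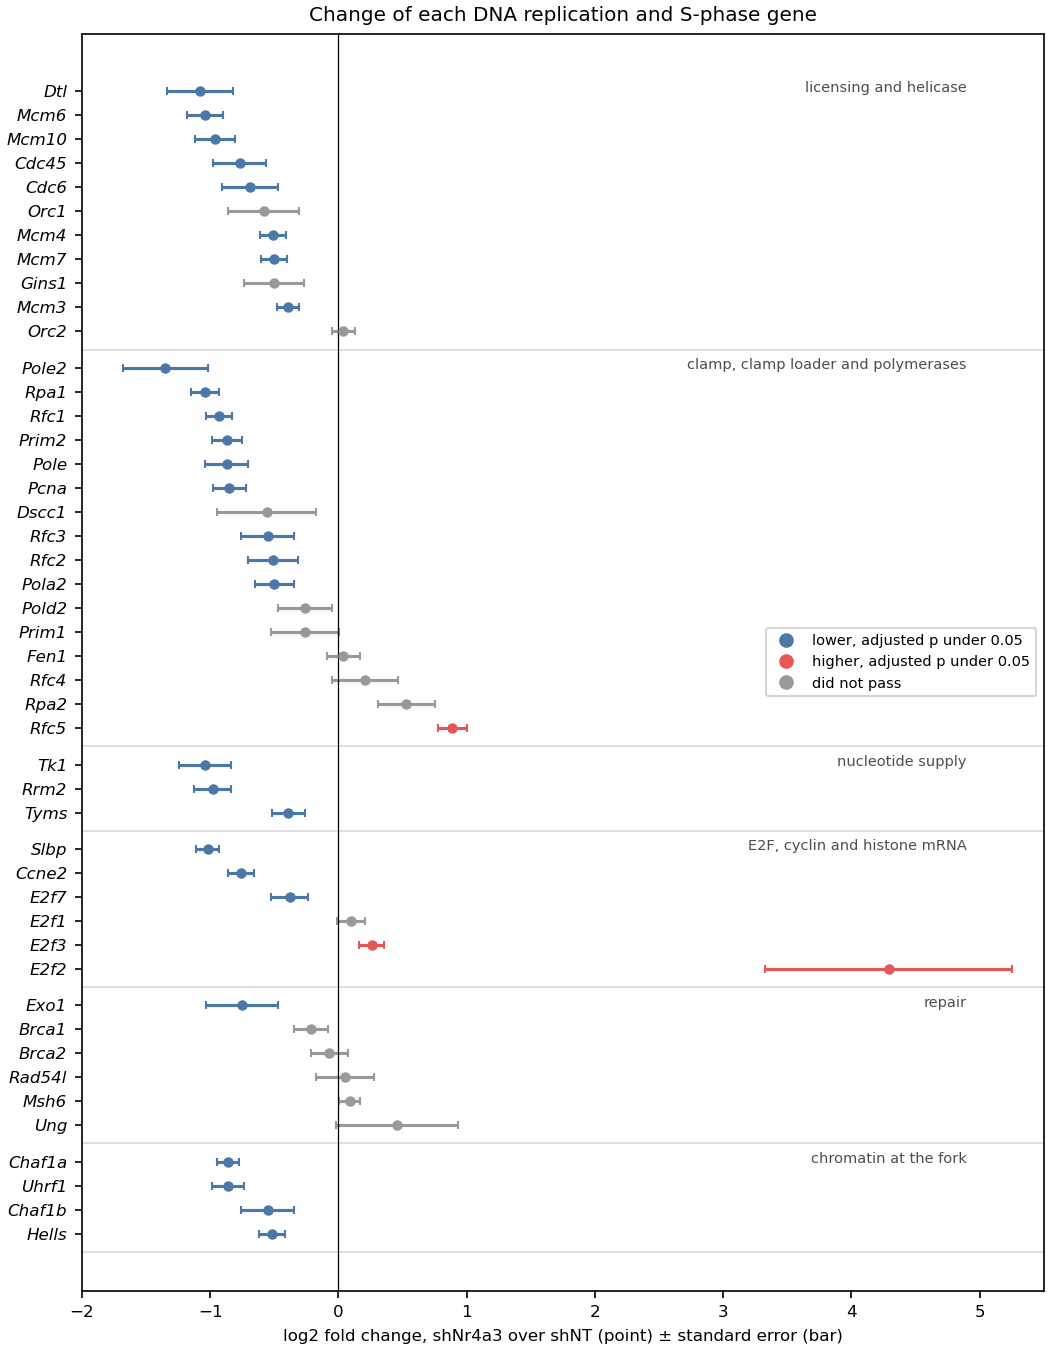
Log2 fold change of shNr4a3 over shNT (points) with its standard error (bars) for the 46 genes, ordered within role, in blue where lower, red where higher and grey where the test was not passed. Of the genes, 28 lie in blue below 0 and 3 in red above 0, and the widest bar is that of E2f2 at 4.29.

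Genes of the same processes outside the 46 went both ways. Of 78 other replication genes tested, 29 were lower, 17 were higher and 32 did not pass. Their median log2 fold change was -0.14. The share that was lower was 37.2%, near the 29.4% of all genes tested. The share that was higher was 21.8%, beside 30.7% of all genes tested. The list counted 15 lower and 13 higher when genes that overlap another gene were left out. Timeless, of the fork protection complex, fell from 43.7 and 47.2 CPM to 5.63 and 4.66 (log2 fold change -3.14 with an SE of 0.133, edgeR adjusted p = 1.64e-07), further than any of the 46. Cdc7, the kinase that fires origins, rose from 3.54 and 3.57 CPM to 6.19 and 5.60 (log2 fold change 0.73, edgeR adjusted p = 0.0156). In nucleotide supply, Shmt1, the cytosolic serine hydroxymethyltransferase, fell by 1.42 on the log2 scale, and Dck, deoxycytidine kinase, rose by 0.90.

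Regulators of the G1/S transition outside the set also changed in both directions, with more of them lower. Of the 16 genes in this role, 8 were lower (50%, beside 29.4% of all genes tested), 3 were higher (18.8%, beside 30.7%) and 5 did not pass. Ccnd3, cyclin D3, rose from 22.2 and 26.2 CPM to 109 and 94.1 (log2 fold change 2.07 with an SE of 0.117, edgeR adjusted p = 8.33e-07), and shares exon bases with Bysl on the opposite strand. Cdk6, a kinase that pairs with D cyclins, fell from 56.8 and 66.1 CPM to 15.5 and 19.0 (log2 fold change -1.83 with an SE of 0.130, edgeR adjusted p = 3.14e-06). Of the 15 other repair genes, 4 were lower (26.7%, beside 29.4% of all genes tested), 4 were higher (26.7%, beside 30.7%) and 7 did not pass. Rad54b, a motor protein of recombination, fell by 0.87 on the log2 scale. Of the chromatin genes, Cdca7, which activates Hells, fell by 2.29 and Hat1, a histone acetyltransferase, by 0.84. Of 11 other clamp, loader and polymerase genes, 1 was lower (9.09%, beside 29.4%) and 4 were higher (36.4%, beside 30.7% of all genes tested). The remaining 6 did not pass, and the median log2 fold change of the 11 was 0.25. Rnaseh2c, a subunit of ribonuclease H2, fell by 0.46 and Poldip2, a polymerase delta interacting protein, rose by 0.42, the largest changes among genes of the polymerase group that passed. Rnaseh2c, Shmt1 and Rad54b share exon bases with a neighbour (Kat5, Smcr8 and Fsbp).

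Mitosis and spindle genes, the other phase-specific part of the cell cycle, gave a lower median. Of 27 tested, 24 were lower (88.9%, beside 29.4% of all genes tested), 1 was higher (3.70%, beside 30.7%) and 2 did not pass. Their median log2 fold change was -0.89, beside -0.52 for the 46 replication genes. Their summed level was 1164 and 1211 CPM under shNT and 625 and 589 under shNr4a3. The difference between the lists was not tested.

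**Figure D4:**
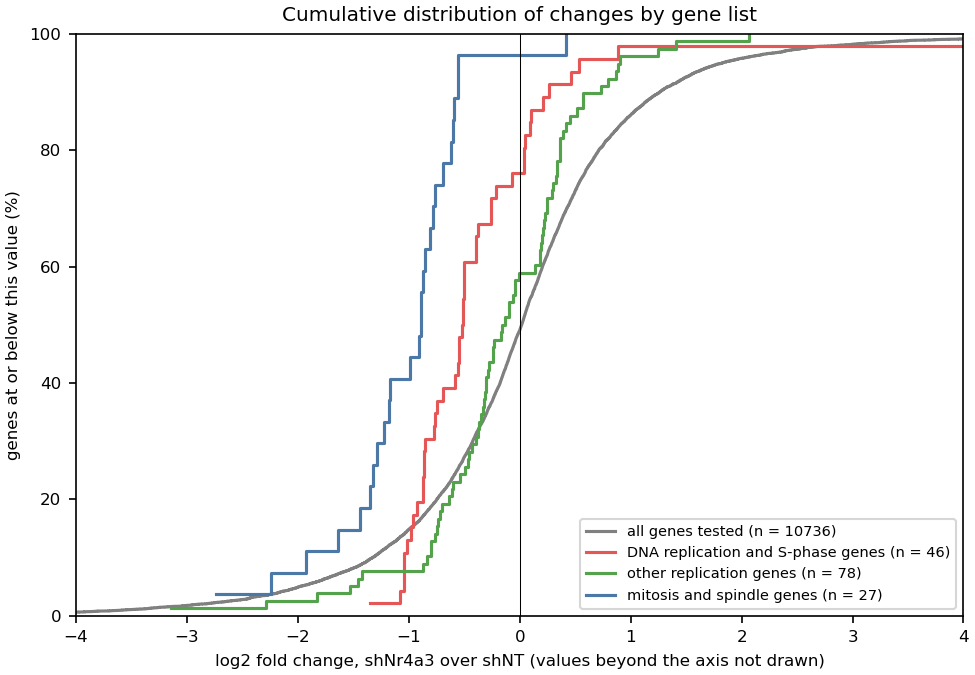
Share of genes (%) at or below each log2 fold change of shNr4a3 over shNT, for all genes tested, the 46 DNA replication and S-phase genes, 78 other replication genes and 27 mitosis and spindle genes. The curves cross 50% at medians of 0.02, -0.52, -0.14 and -0.89.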

How the data were processed

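Per the labels' protocols, RNA was depleted of ribosomal RNA and made into stranded paired-end libraries. The deposited values are raw counts of reads for each gene, whole and not normalized. Per the submitters' processing notes, the tools were Trimmomatic 0.36, SAMtools and featureCounts of Subread 1.5.1, with build mm10. For the aligner, the strand setting and the annotation release, nothing is given in the sources used here.

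Counts were tested with edgeR 4.0.16 (R 4.3.3; glmQLFit, glmQLFTest) with TMM scaling (factors 0.991 to 1.012), filterByExpr (minimum count 10), a design with the hairpin alone and p-values adjusted by Benjamini-Hochberg (threshold 0.05). CPM are TMM-scaled, and SE is the size of the log2 fold change divided by the square root of F. The procedure was tested on simulated counts in which few genes were changed. That test does not cover data in which 60.2% of genes passed. Replicates of both groups differed beyond counting noise (chi-square per degree of freedom 10.63 for shNT and 22.14 for shNr4a3) and all 4 libraries were kept. Symbols were matched to GENCODE M21 (GRCm38) by name and chromosome for 16076 genes (98.1%), which gave coordinates and exon overlaps, since exon lists in the table are truncated; 11 of the 46 genes overlap another gene. For the 46, the exon length in the table equals that of M21 in 38.

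The genes, lists and tests were chosen with earlier results of these data known. By the rule for named genes, values are given for the genes with the largest changes in each role, those that rose, those whose call depends on a setting and those that did not pass, and for the 2 most changed other replication genes per role, of which 1 repair gene is not reported here. Orc3, Orc4, Orc5 and Pole3 were named after their values were seen, as subunits of complexes described. Alternatives were DESeq2 1.42.0, RLE scaling, no low-count filter, a replicate block, leaving out overlapping genes and leaving out each library. Protein sequences were not used here.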

Additional observations from a re-analysis of the deposited data

How the results depend on the processing

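The count of 28 lower genes among the 46 was 22 with DESeq2, 28 with RLE scaling, with no low-count filter and with the replicate block, and 23 without overlapping genes, which leaves fewer genes to count. Leaving out 1 library gave 20 to 26. The count of 3 higher genes was 2 or 3 throughout, and 3 with the replicate block. Of the 31 calls, 21 held under all 9 alternatives in which the gene was tested, and no called gene changed direction. E2f2, whose call adds nothing to its counts, is among the 21 and among the 3 higher genes. With RLE scaling, the median of all genes moved by -0.014 on the log2 scale.

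Among the other replication genes, the lower count of 29 became 15 without overlapping genes, again with fewer genes tested. Leaving out 1 library gave 20 to 28 lower genes and 10 to 17 higher genes (10 without shNT replicate 1 and 11 without shNT replicate 2, against 17). The cause was not tested. For genes that did not pass, the sign turned when 1 library was left out, with log2 fold changes of -0.01 to 0.09 for Orc2, -0.08 to 0.45 for Rfc4, -0.64 to 0.03 for Prim1, -0.06 to 0.13 for Fen1, -0.24 to 0.11 for Brca2 and -0.19 to 0.31 for Rad54l.

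The labels do not say whether same-numbered libraries share a culture or animal. Deviations of these libraries from the group means had a correlation of 0.0229 across genes, which cannot show that they share only a number. Under the replicate block the counts over all genes were 3255 lower and 3404 higher, against 3158 and 3300. Without 1 library, a group of 1 is assumed to vary like the other. The precision for genes with few counts was low: Ung, at 20 to 36 counts per library, had a standard error of 0.476 on the log2 scale.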
